A study of Mus musculus with 6 samples.

Results

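The genes described here are 10 genes of the mouse inflammasome, chosen by name from the 18784 genes measured on each array: the sensors Nlrp3, Nlrc4, Aim2 and Nlrp1b, the adaptor Pycard, the caspases Casp1 and Casp4, and the outputs Il1b, Il18 and Gsdmd. Each was read by 1 probe set, so all 10 were found. They were grouped with earlier results of the same comparison known. Their differences between the hairpins are therefore given as a description, and nothing is supported with them.

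Inflammasomes are protein complexes of the cytosol, best known in macrophages and dendritic cells. A sensor that meets a microbial product, foreign DNA or damage to the cell gathers the adaptor ASC, encoded by Pycard, and ASC gathers caspase-1. Caspase-1 cuts the precursors of the cytokines IL-1β and IL-18 into their active forms, and it cuts gasdermin D, whose freed fragment makes pores in the plasma membrane. The mouse Casp4 gene encodes the protein known as caspase-11, which binds bacterial lipopolysaccharide and cuts gasdermin D itself. In macrophages, Nlrp3 and Il1b are known to be transcribed more after signals that act through NF-κB.

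The RNA came from cultured mouse B cell lymphomas whose genotype is given as Arf-/-Eu-myc/Bcl-2. All 6 samples lacked the tumour suppressor Arf and carried Eu-myc, a transgene that expresses Myc from an immunoglobulin heavy chain enhancer active in B cells, together with Bcl-2, a gene that blocks apoptosis. The Dhx9.1241 cells (3 arrays) had been transduced with the short hairpin RNA of that name, which targets the RNA and DNA helicase gene Dhx9, and the Rluc.713 cells (3 arrays) with a control hairpin named for Renilla luciferase. Both were kept on feeder layers of gamma-irradiated Arf-/- mouse embryonic fibroblasts, and the labels name no drug, no age and no strain. Nothing states that arrays with the same hairpin stem from separate cultures, so a p-value here covers only the variation among these arrays, which may be technical. The study as a whole concerned resistance to ABT-737, which inhibits BCL-2 proteins.

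Values are log2 levels made by the authors with robust multi-array average (RMA), and the number of arrays limits their precision. Dhx9 itself averaged 11.42 ± 0.041 in Dhx9.1241 cells and 12.42 ± 0.063 in Rluc.713 cells (SD, n = 3 each). The sample titles name Dhx29, another helicase gene, as the one knocked down. Dhx29 averaged 10.45 ± 0.047 in Dhx9.1241 cells and 10.41 ± 0.059 in Rluc.713 cells, so the groups are called by the hairpin. All 11 measured B cell markers lay above the median level of all genes. Rluc.713 replicate 1 stood apart from the other Rluc.713 arrays: its median deviation from their mean was 0.11 over genes below the median level and -0.06 over genes at or above it. By median absolute difference, it was closer to Dhx9.1241 replicate 2 (0.088) than to Rluc.713 replicates 2 and 3 (0.109 and 0.113). From Dhx9.1241 replicates 1 and 3 that difference was 0.110 and 0.107.

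The upstream sequences of 3 genes are shown first: Nlrp3, which differed most, and the neighbours Casp1 and Casp4, whose differences had opposite signs. Each is the 250 bases before a RefSeq gene start of GRCm38.p6, read 5′ to 3′ on the plus strand, which is the strand of all 3 genes. Nlrp3 has 2 listed starts, at the ends of chr11:59541319-59541568 and chr11:59542436-59542685. The Casp1 window is chr9:5298267-5298516 and the Casp4 window is chr9:5308599-5308848. Capitals mark matches to the NF-κB consensus and to the core of the interferon-stimulated response element (TTTCNNTTT) in the first Nlrp3 window and in Casp4. In the second Nlrp3 window and in Casp1 they mark the PU box (GAGGAA or its reverse complement), a site of the myeloid and B cell factor PU.1.
Nlrp3 first start: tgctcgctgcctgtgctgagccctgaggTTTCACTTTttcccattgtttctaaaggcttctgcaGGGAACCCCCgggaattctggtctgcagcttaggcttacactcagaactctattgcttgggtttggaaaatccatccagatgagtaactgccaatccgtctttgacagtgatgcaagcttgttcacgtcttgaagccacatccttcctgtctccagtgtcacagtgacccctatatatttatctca
Nlrp3 second start: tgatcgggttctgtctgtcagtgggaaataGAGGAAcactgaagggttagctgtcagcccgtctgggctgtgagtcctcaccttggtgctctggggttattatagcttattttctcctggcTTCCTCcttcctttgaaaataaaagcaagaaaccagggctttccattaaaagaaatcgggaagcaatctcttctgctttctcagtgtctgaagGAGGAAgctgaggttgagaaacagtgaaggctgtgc
Casp1: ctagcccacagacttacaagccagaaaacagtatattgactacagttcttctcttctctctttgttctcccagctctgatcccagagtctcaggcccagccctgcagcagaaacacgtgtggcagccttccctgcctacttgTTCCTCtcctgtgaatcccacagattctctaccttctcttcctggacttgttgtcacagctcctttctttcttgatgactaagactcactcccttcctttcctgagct
Casp4: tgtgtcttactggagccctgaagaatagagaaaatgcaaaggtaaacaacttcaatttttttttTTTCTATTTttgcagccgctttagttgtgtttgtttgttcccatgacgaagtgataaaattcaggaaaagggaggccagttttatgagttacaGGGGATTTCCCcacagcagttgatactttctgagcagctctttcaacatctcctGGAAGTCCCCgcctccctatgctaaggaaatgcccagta

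The Casp4 window shown, that of the first of 2 listed starts, held 3 matches to the NF-κB consensus, counted over both strands, and 2 of them overlapped. Over all 32851 windows of this length, 7.25% held at least 1 match to that consensus on either strand, 9.37% the interferon element core and 23.3% a PU box. Among the other 6 members with a listed start, PU boxes were also found for Aim2, Nlrp1b and Pycard, and the interferon element core for Nlrp1b. This short form of the interferon element was taken after a longer form, with a further C at its 3′ end, had matched no member window, so its matches depend on the length searched. Gsdmd is named only. No member window held a gamma-activated site (TTCNNNGAA, in 7.02% of all windows) on either strand. Such matches describe the letters of these windows only.

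Among the sensors, Nlrp3 was the gene that differed most. NLRP3 responds to many signs of damage, among them the loss of potassium from the cell. The Nlrp3 level was 7.81, 7.78 and 7.84 on the log2 scale in Dhx9.1241 replicates 1, 2 and 3, against 8.32, 8.68 and 8.65 in Rluc.713 replicates 1, 2 and 3. The 3 Dhx9.1241 arrays lay close together and below every Rluc.713 array, and the lowest Rluc.713 array was replicate 1. The difference, Dhx9.1241 minus Rluc.713, was -0.74 on the log2 scale (95% interval -0.95 to -0.53), a level 1.67-fold lower. With each array left out in turn, it stayed between -0.86 and -0.68. In RNA from a whole culture, fewer cells that express a gene and less of its RNA per cell cannot be told apart.

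The other sensors separated less or not at all. NLRC4, which works with NAIP proteins that bind bacterial flagellin and secretion needle proteins, is encoded by Nlrc4. Its level was 9.43, 9.13 and 9.26 in Dhx9.1241 replicates 1, 2 and 3, against 9.28, 9.57 and 9.68 in Rluc.713 replicates 1, 2 and 3. The groups overlapped because Dhx9.1241 replicate 1 lay above Rluc.713 replicate 1, and the log2 difference of -0.23 had an interval from -0.49 to 0.02. It was -0.35 without Rluc.713 replicate 1, -0.15 without Rluc.713 replicate 3 and -0.16 without Dhx9.1241 replicate 2.

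AIM2 binds DNA in the cytosol, and its gene lies in the interferon-inducible Ifi200 cluster. Aim2 was at 8.61, 8.43 and 8.71 in Dhx9.1241 replicates 1, 2 and 3, against 8.39, 8.69 and 8.92 in Rluc.713 replicates 1, 2 and 3. The groups overlapped across most of their range. The log2 difference of -0.08 (95% interval -0.38 to 0.21) had the opposite sign without Rluc.713 replicate 3 (0.04), and it was -0.22 without Rluc.713 replicate 1.

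NLRP1B is a sensor of anthrax lethal factor in mice. Nlrp1b was at 7.14, 7.11 and 7.02 in Dhx9.1241 replicates 1, 2 and 3, against 7.18, 6.85 and 6.89 in Rluc.713 replicates 1, 2 and 3. All Dhx9.1241 arrays lay above Rluc.713 replicates 2 and 3 and below replicate 1. The log2 difference was 0.12 (95% interval -0.08 to 0.32). It was 0.22 without Rluc.713 replicate 1, 0.06 without Rluc.713 replicate 2 and 0.08 without Rluc.713 replicate 3. Nlrp1b has close relatives beside it on the chromosome, Nlrp1a and Nlrp1c-ps, and its value is uncertain where probes are shared.

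**Figure D1:**
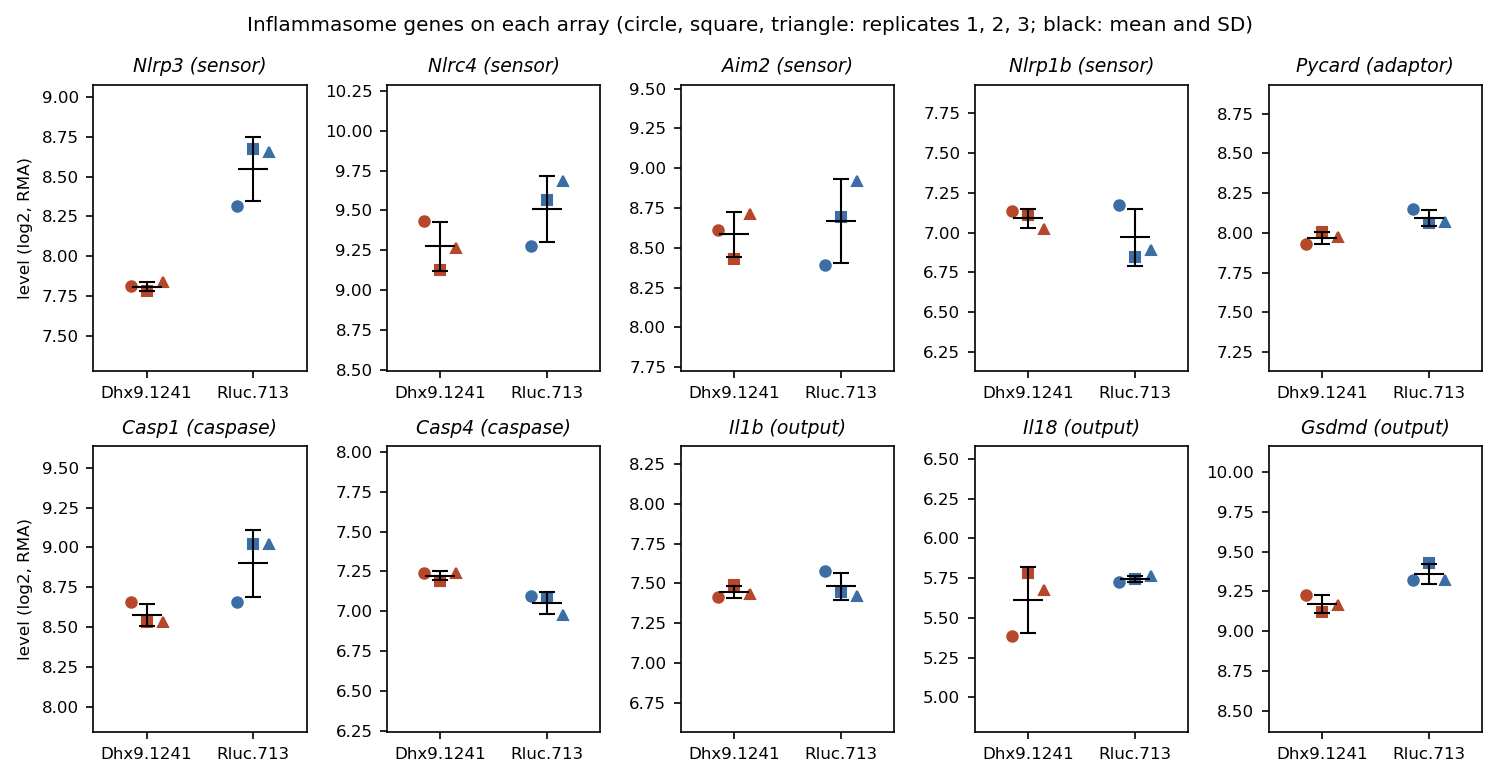
Log2 level (vertical axis, a span of equal size in each panel) of the 10 genes on each array, with Dhx9.1241 in red left of Rluc.713 in blue; symbols are replicates 1 to 3 and black bars the mean and SD. Nlrp3 is at 7.78 to 7.84 on the Dhx9.1241 arrays and at 8.32 to 8.68 on the Rluc.713 arrays, and the Casp1 groups touch at Rluc.713 replicate 1.

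The adaptor gene Pycard was at 7.931, 8.005 and 7.975 in Dhx9.1241 replicates 1, 2 and 3, against 8.153, 8.063 and 8.070 in Rluc.713 replicates 1, 2 and 3. Every Dhx9.1241 array lay below every Rluc.713 array, by a narrow margin. The log2 difference was -0.13 (95% interval -0.24 to -0.01), and it stayed between -0.14 and -0.10 with each array left out in turn.

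The caspase genes Casp1 and Casp4 lie next to each other on chromosome 9, and their differences had opposite signs. Casp1 was at 8.66, 8.53 and 8.53 in Dhx9.1241 replicates 1, 2 and 3, against 8.66, 9.02 and 9.02 in Rluc.713 replicates 1, 2 and 3. The groups did not overlap, but only just: Dhx9.1241 replicate 1 and Rluc.713 replicate 1 had the same level to 2 decimals. The log2 difference was -0.33 (95% interval -0.55 to -0.10), a level 1.25-fold lower. It was -0.45 without Rluc.713 replicate 1 and between -0.37 and -0.26 without any 1 of the other arrays.

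Casp4 was at 7.24, 7.19 and 7.24 in Dhx9.1241 replicates 1, 2 and 3, against 7.09, 7.09 and 6.97 in Rluc.713 replicates 1, 2 and 3. It was the only one of the 10 genes with every Dhx9.1241 array above every Rluc.713 array. The log2 difference was 0.17 (95% interval 0.05 to 0.29), a level 1.13-fold higher, and it ranged from 0.13 to 0.19 with each array left out. Casp4 was itself dim, with a mean level of 7.14 and 23.4% of genes below it. Casp12, the measured gene on the other side of Casp4, had a log2 difference of 7.4e-05. Its mean level was 4.80, with only 1.45% of genes below it, so this difference says little about Casp12.

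Among the outputs, Il1b, which encodes the precursor of IL-1β, was at 7.42, 7.49 and 7.43 in Dhx9.1241 replicates 1, 2 and 3, against 7.58, 7.45 and 7.42 in Rluc.713 replicates 1, 2 and 3. These groups overlapped, and the log2 difference of -0.03 (95% interval -0.17 to 0.10) had the opposite sign without Rluc.713 replicate 1 (0.01). Il18 was at 5.38, 5.78 and 5.68 in Dhx9.1241 replicates 1, 2 and 3, against 5.73, 5.75 and 5.77 in Rluc.713 replicates 1, 2 and 3. The Rluc.713 arrays nearly coincided while the Dhx9.1241 arrays were spread to both sides of them. The log2 difference in Il18 was -0.13 (95% interval -0.35 to 0.08), and -0.02 without Dhx9.1241 replicate 1. The deposited values carry no detection call, so whether such dim probe sets were above background is not known here.

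Gsdmd, the gene of the pore-forming gasdermin D, was at 9.226, 9.118 and 9.165 in Dhx9.1241 replicates 1, 2 and 3, against 9.320, 9.429 and 9.320 in Rluc.713 replicates 1, 2 and 3. Each Dhx9.1241 array lay below each Rluc.713 array. The log2 difference was -0.19 (95% interval -0.31 to -0.06), and it ranged from -0.21 to -0.15 with each array left out.

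In the group of 10, 8 genes had a negative difference and 2 a positive one, with a median of -0.13 on the log2 scale, against 0.0049 over all genes. The groups did not overlap for 5 of the 10, with the Dhx9.1241 arrays below in 4 (Nlrp3, Casp1, Gsdmd and Pycard) and above in 1 (Casp4). Over all 18784 genes, the groups did not overlap for 20.1%, with Dhx9.1241 below in 8.51% and above in 11.6%. At an adjusted p under 0.05 over all genes, 1 of the 10 was called, Nlrp3, against 3.14% of all genes, with 1.07% lower and 2.07% higher. Without Rluc.713 replicate 1, 2 of the 10 were called, Nlrp3 and Casp1, against 4.77% of all genes in that fit. Since the genes were assembled with this comparison known, nothing is read from these shares.

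**Figure D2:**
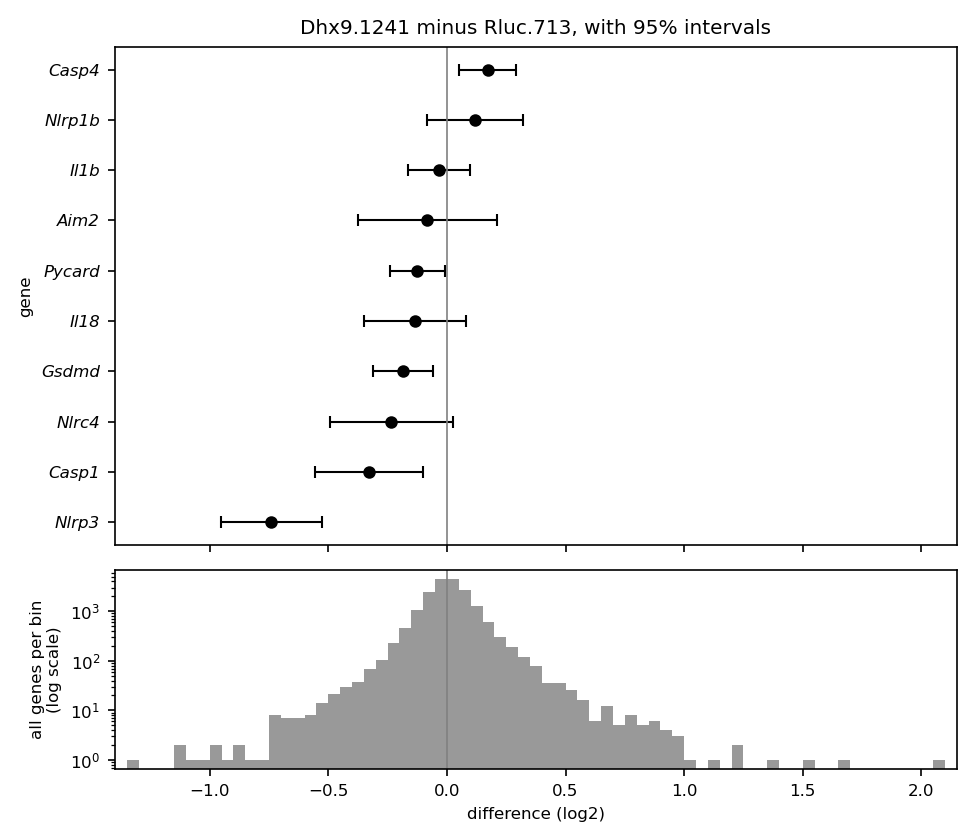
Log2 difference, Dhx9.1241 minus Rluc.713 (horizontal axis), of the 10 genes with 95% intervals (upper panel), above the distribution of the same difference over all 18784 genes, counted per bin on a log axis (lower panel). The differences run from -0.74 for Nlrp3 to 0.17 for Casp4, and the intervals of Nlrc4, Il18, Aim2, Il1b and Nlrp1b include 0.

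The spread among the Rluc.713 arrays was not the same for all members. In Rluc.713 replicate 1, Aim2, Casp1, Nlrc4 and Nlrp3 deviated from the mean of the other Rluc.713 arrays by -0.41, -0.36, -0.35 and -0.35 on the log2 scale, and Nlrp1b by 0.31. For Pycard, Casp4, Il18 and Gsdmd the deviation was between -0.06 and 0.09, and for Il1b it was 0.14. The part of that array in each difference was measured by leaving it out, as the plot of differences with each array left out shows.

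**Figure D3:**
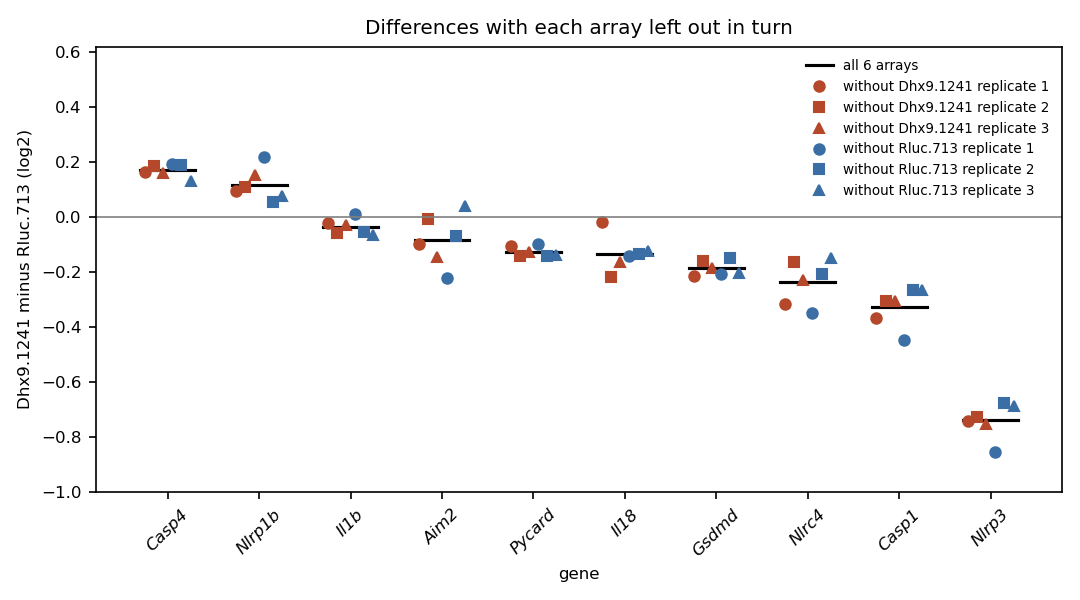
Log2 difference, Dhx9.1241 minus Rluc.713 (vertical axis), of each gene with all 6 arrays (black line) and with each array left out in turn (red, a Dhx9.1241 array left out; blue, an Rluc.713 array left out). Nlrp3 stays between -0.86 and -0.68, while Casp1 reaches -0.45 without Rluc.713 replicate 1 and Aim2 crosses 0 without Rluc.713 replicate 3.

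Genes next to the members on their chromosomes were also compared. Of 18 measured neighbours that are not members themselves, 0 were called by limma and 0 had an unadjusted p under 0.05, against 3.14% and 14.1% of all genes. The groups did not overlap for 1 of them, Zkscan17, with every Dhx9.1241 array below, against 20.1% of all genes in either direction. Mean levels of the neighbours ran from 4.80 (Casp12) to 10.58 (Slc30a6), most of them below the median of 8.47 over all genes. Differences in dim genes come out too small, so nothing is read from these low counts. Their log2 differences lay between -0.09 (Zkscan17, beside Nlrp3) and 0.07 (Il1a, beside Il1b). Ifi214, beside Aim2, had a log2 difference of -0.03.

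The genes whose pattern over the 6 arrays was closest to that of Nlrp3, among 18783 others, were Cd63, C3ar1 and Spry4. Likeness was measured as the mean absolute distance between centred log2 levels, which was 0.049 for Cd63, 0.066 for C3ar1 and 0.070 for Spry4. Cd63, a tetraspanin of late endosomes, was at 7.07, 7.21 and 7.18 in Dhx9.1241 replicates 1, 2 and 3, against 7.62, 7.94 and 7.93 in Rluc.713 replicates 1, 2 and 3. C3ar1, the receptor of the complement fragment C3a, averaged 8.13 ± 0.058 in Dhx9.1241 cells and 8.77 ± 0.203 in Rluc.713 cells (SD, n = 3 each). Spry4, an inhibitor of receptor tyrosine kinase signalling, averaged 8.75 ± 0.051 in Dhx9.1241 cells and 9.39 ± 0.126 in Rluc.713 cells. In all of these, Rluc.713 replicate 1 was the lowest Rluc.713 array, as it was for Nlrp3. They were picked for likeness over these same arrays, so the shared pattern follows from the choice and is no separate result.

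Genes of the pathway that are not members were then counted in the limma fit over all genes, from 4 lists. In the list of other caspases, gasdermins and inflammasome regulators, 2 of 34 measured genes rose, 1 fell and 31 did not pass. Over all genes, 2.07% were called higher and 1.07% lower. Without Rluc.713 replicate 1 there were 3 higher and 2 lower in the list, against 4.77% of all genes in either direction. P2rx7 encodes the ATP-gated channel whose opening lets potassium leave the cell, a known trigger of NLRP3. The P2rx7 level was 10.81, 10.69 and 10.69 in Dhx9.1241 replicates 1, 2 and 3, against 9.97, 10.17 and 10.05 in Rluc.713 replicates 1, 2 and 3, with no overlap. It rose by 0.67 on the log2 scale (95% interval 0.52 to 0.82, limma adjusted p = 0.00187), a level 1.59-fold higher, and it passed without any 1 array (adjusted p up to 0.0158).

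Serpinb1a, an inhibitor of neutrophil proteases that is also known to restrain inflammatory caspases, rose by 0.48 (95% interval 0.35 to 0.62, limma adjusted p = 0.00458). It was at 10.93, 11.11 and 11.07 in Dhx9.1241 replicates 1, 2 and 3, against 10.53, 10.58 and 10.55 in Rluc.713 replicates 1, 2 and 3, and it too passed without any 1 array (adjusted p up to 0.0367). Kcnk6, which encodes the potassium channel TWIK2, linked to potassium efflux ahead of NLRP3 in mouse macrophages, fell by 0.32 (95% interval -0.46 to -0.19, limma adjusted p = 0.0236). It was at 9.52, 9.56 and 9.41 in Dhx9.1241 replicates 1, 2 and 3, against 9.78, 9.80 and 9.88 in Rluc.713 replicates 1, 2 and 3. The Kcnk6 call was held without Rluc.713 replicate 1 (0.0191) and lost without any 1 of the other 5 arrays, with adjusted p-values from 0.0564 to 0.0994.

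**Figure D4:**
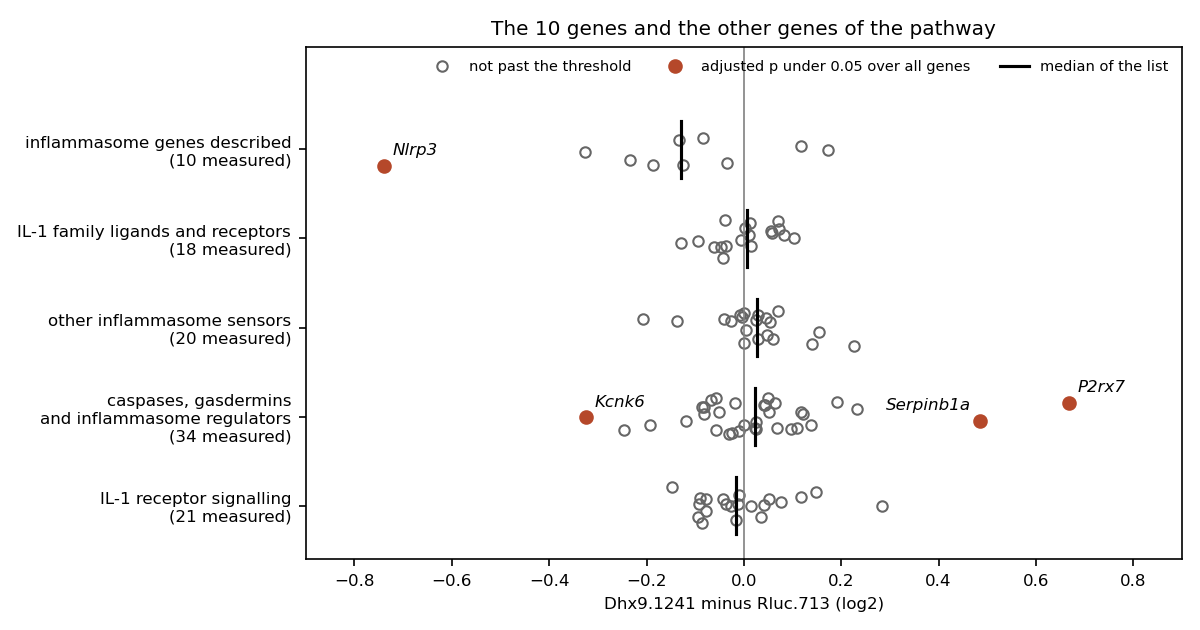
Log2 difference, Dhx9.1241 minus Rluc.713 (horizontal axis), of each measured gene in the group of 10 and in the 4 lists of other pathway genes; filled points passed an adjusted p under 0.05 over all genes and bars are list medians. P2rx7 at 0.67, Serpinb1a at 0.48 and Kcnk6 at -0.32 are the filled points outside the group of 10.

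The median of that list was 0.023. Nek7, the kinase that binds NLRP3 when it assembles, had a log2 difference of -0.12 (limma adjusted p = 0.357), and Txnip, a protein that binds NLRP3 under oxidative stress, one of 0.12 (adjusted p = 0.464). Casp8, whose protease can also cut IL-1β, stood at -0.09 (adjusted p = 0.608). These 3 were singled out after their values were seen. Kcnk6 and P2rx7, both on the path of potassium efflux, moved in opposite directions, which the plot of Nlrp3 with the called pathway genes shows array by array.

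**Figure D5:**
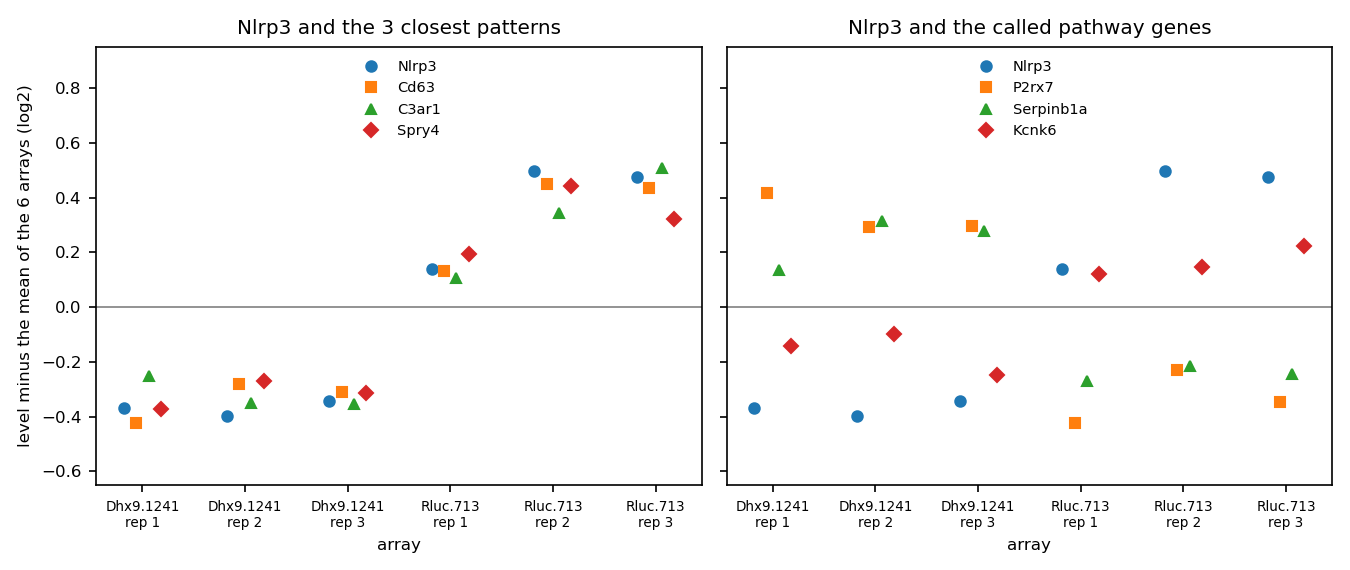
Level of each gene on each array minus its mean over the 6 arrays (vertical axis, log2), for Nlrp3 with its 3 closest genes (left) and with the called pathway genes (right); each symbol is a gene. Cd63, C3ar1 and Spry4, picked for likeness to Nlrp3 over these same arrays, follow it including its lower value in Rluc.713 replicate 1. P2rx7 and Serpinb1a are high on the Dhx9.1241 arrays, and Kcnk6 is low on them.

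Among other inflammasome sensors, 0 of 20 measured genes passed in limma, and the median was 0.027. With p unadjusted and under 0.05, 1 was higher and 0 lower. Over all genes these shares were 3.14% and 14.1% in either direction. Of the 20, 7 lay at or above the median level of all genes, so these counts do not show that the list was unchanged. Naip5, a sensor of flagellin that works with NLRC4, had the largest difference, 0.23 (adjusted p = 0.352), and Ifi209, of the Ifi200 cluster, stood at -0.21 (adjusted p = 0.356). Naip5 belongs to a set of near-identical paralogs, so its value is uncertain. Nlrp9b, which in mouse intestinal epithelium is known to sense viral RNA through Dhx9, had a log2 difference of 0.03 (adjusted p = 0.961) at a mean level of 4.98; it was singled out after its value was seen.

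In the list of IL-1 family ligands and receptors, 0 of 18 measured genes passed in limma, and 0 had an unadjusted p under 0.05. Over all genes these shares were 3.14% and 14.1%. Most of the list was dim: its median level was 6.54, against 8.47 over all genes, and 3 of the 18 lay at or above the latter. Differences in dim genes come out too small, so these counts do not show that the list was unchanged. The median log2 difference was 0.0062. Il1rn, the receptor antagonist that blocks IL-1, had the largest difference, -0.13 (95% interval -0.27 to 0.01, adjusted p = 0.407), and Il1f9, the gene of IL-36γ, stood at 0.10 (adjusted p = 0.701). Of the ligand and receptor genes closest to the outputs, Il1r1 stood at 0.01, Il18r1 at -0.04 and Il18bp, the decoy of IL-18, at 0.07; these 3 were singled out after their values were seen.

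Genes of signalling below the IL-1 receptor gave 0 calls among 21 measured and a median of -0.02. With p unadjusted and under 0.05, 1 was higher and 1 lower. Over all genes these shares were 3.14% and 14.1% in either direction, and nothing is read from counts this small. Peli1, a ubiquitin ligase of the receptor complex, had the largest difference, 0.28 (95% interval 0.14 to 0.43, limma adjusted p = 0.0572), and Tollip, an inhibitor of IL-1 receptor signalling, stood at 0.15 (adjusted p = 0.379). The receptor adaptor Myd88, singled out after its value was seen, stood at -0.09 (adjusted p = 0.553).

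Inflammasome genes are known mainly from myeloid cells, and some myeloid markers moved with Nlrp3. Of 20 measured myeloid markers, 4 fell and 0 rose, and of 11 measured B cell markers, 3 fell and 0 rose. Over all genes, 1.07% were called lower and 2.07% higher. With p unadjusted and under 0.05, 7 myeloid markers were lower and 2 higher, against 14.1% of all genes in either direction. The log2 differences were -1.31 for Lyz2, -0.45 for Csf1r, -0.37 for Tyrobp and -0.32 for Fcer1g (limma adjusted p = 0.000129, 0.016, 0.00556 and 0.0252). The count of myeloid calls was 6 without Rluc.713 replicate 1, 3 without Rluc.713 replicate 3 and 2 without any 1 of the other 4 arrays. With the filter on dim genes, after quantile normalization again, and with robust estimation and a variance trend, 1 myeloid marker was called higher. In those fits 4, 5 and 6 were called lower. The mean level of the myeloid list was 8.63 to 8.69 on the Dhx9.1241 arrays and 8.81 to 8.85 on the Rluc.713 arrays. That mean includes Lyz2, which differed most. The median log2 difference of the list was only -0.045, against 0.0049 over all genes, with 16 markers negative and 4 positive. Spi1, which encodes PU.1, stood at -0.24 (adjusted p = 0.0572), and Adgre1, the macrophage marker F4/80, at -0.01 with a mean level of 6.43. Other myeloid markers lay on the opposite side: Fcgr3, an Fc receptor gene, stood at 0.22 (adjusted p = 0.0972) and Itgam, the gene of CD11b, at 0.21 (adjusted p = 0.152), each with every Dhx9.1241 array above every Rluc.713 array. These 4 markers were singled out after their values were seen. The array has no true 0, the lowest value on it being 3.97, so no marker could be at 0. The part of these markers in the Nlrp3 difference was not tested.

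Of the other marker lists, 0 of 12 neutrophil markers passed in limma (1 lower and 0 higher with p unadjusted and under 0.05), with a mean level of 6.64 to 6.73 on the Dhx9.1241 arrays and 6.67 to 6.79 on the Rluc.713 arrays. Among 8 dendritic cell markers Flt3 rose (0.45, limma adjusted p = 0.0058), with a list mean of 7.70 to 7.81 on the Dhx9.1241 arrays and 7.60 to 7.75 on the Rluc.713 arrays. The feeder layer consists of fibroblasts, and of 19 markers of that type Cav1 alone fell (-0.25, adjusted p = 0.0485), with a list mean of 7.95 to 7.98 on the Dhx9.1241 arrays and 7.93 to 8.11 on the Rluc.713 arrays, and its call was lost in every fit without 1 array. Among 13 markers of T and NK cells limma called 0, and 1 was higher and 0 lower with p unadjusted and under 0.05; the list mean was 7.21 to 7.24 on the Dhx9.1241 arrays and 7.17 to 7.29 on the Rluc.713 arrays. In the B cell list, Fcmr, Vpreb3 and Spib fell (log2 differences -0.90, -0.57 and -0.54), and the other 8 did not pass. Ms4a1, the gene of CD20, singled out after its value was seen, stood at 0.31 (adjusted p = 0.0717), with every Dhx9.1241 array above every Rluc.713 array, and 1 B cell marker was called higher with array weights, with the filter on dim genes, with robust estimation and a variance trend, and after quantile normalization again.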

How the data were processed

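The authors deposited log2 values, 1 per probe set and array, made from biotin-labelled total RNA (Affymetrix 3′ IVT kit, per the labels' protocols) by RMA, a step named in the submitters' processing notes. RMA removes background, quantile-normalizes arrays and summarises the probes of a set, so differences in dim genes come out too small. No version, genome build or probe set definition is given in the sources used here. Values of 3.97 to 14.6, with array medians of 8.43 to 8.51, fit a log2 scale.

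Of 21212 probe sets, 18786 had 1 gene symbol, 6 several and 2420 are unnamed here. For 18775 the symbol was updated by Entrez number through a table of GRCm38.p6, used for names and neighbours only. The brightest probe set was kept for each of 2 genes with more than 1, leaving 18784 genes and no filter. The 10 members, the lists and the motifs were chosen with earlier results of these data known. Dhx9.1241 minus Rluc.713 was fitted with limma 3.58.1 (lmFit, eBayes) in R 4.3.3 on 3 and 3 arrays without covariates, with two-sided p-values adjusted by Benjamini-Hochberg over all genes and called under 0.05. The fit was tested on simulated data. Sequences are from RefSeq (GRCm38.p6); 9 of 10 members had a listed start.

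Named were all members, Dhx9 and Dhx29; in each pathway list the called genes, or the 2 largest differences where fewer than 2 passed; called markers, up to 4 a list; neighbours; and the 3 genes closest to the member that differed most. Other names are marked as singled out later. Alternatives were the mean over probe sets, a filter on dim genes, quantile normalization again, median centring, a variance trend with robust estimation, array weights, a replicate block and leaving out each array.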

Additional observations from a re-analysis of the deposited data

How the results depend on the processing

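The Nlrp3 difference kept its sign in all 12 alternatives that tested it (the filter on dim genes left it out). The other members kept theirs in the alternatives that tested them, except Aim2 (0.04 without Rluc.713 replicate 3) and Il1b (0.01 without Rluc.713 replicate 1). Some of these alternatives could not change a member's difference, only its call. They were the mean over probe sets, the variance trend with robust estimation, the replicate block and the filter on dim genes. The number of the 10 genes called was 1 with all arrays, 2 after quantile normalization again, 3 with array weights and 1 to 2 with each array left out. Gsdmd was called besides Nlrp3 after quantile normalization again, Gsdmd and Casp1 besides Nlrp3 with array weights, and with the filter on dim genes, which left 4 of the 10, the 1 call was Gsdmd. Over all genes, 590 were called, against 991 with only genes at or above the median level, 1139 with a variance trend and robust estimation, 1211 with array weights and 205 to 896 with each array left out. The caspase, gasdermin and regulator list gave 3 calls, 5 with array weights and 2 to 5 with each array left out. The IL-1 receptor signalling list gave 0 calls, and 1 after quantile normalization again, with a variance trend and robust estimation, with array weights and with the filter on dim genes, which left 19 of its genes. The other pathway lists gave 0 calls in all 13 alternatives. The cause of these shifts was not tested. Deviations of same-numbered arrays from their group means correlated at -0.27, -0.34 and 0.24. Arrays with different numbers were not compared in this way, so these values do not settle whether the replicate numbers pair the arrays. A fit with the replicate number as a block called 264 genes, 1 of the 10, and 2 of the caspase, gasdermin and regulator list, where Kcnk6 had an adjusted p of 0.0951. RMA values have no detection call, so how far background limits dim genes such as Il18 is not known here.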
